A study of Homo sapiens with 18 samples.

Results

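The genes described here are the antisense RNAs of Cal51, a human cell line from a triple-negative breast carcinoma, after 8 h of fenofibrate, ezetimibe or both drugs, together with the protein-coding genes that they overlap on the other DNA strand. They are the rows that the table of both drugs against DMSO gives the gene biotype antisense, 177 of its 3508 genes. Of these, 11 were also in the ezetimibe table and 1 in the fenofibrate table, and those 2 tables held 8 and 2 further antisense RNAs, so that 187 of the 3647 genes in any table were antisense RNAs.

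RNA of 18 samples in 6 groups of 3 was sequenced. The 12 samples used here were Cal51 cells given the solvent DMSO, fenofibrate (a lipid-lowering drug that activates the receptor PPARα), ezetimibe (which blocks cholesterol uptake by NPC1L1) or fenofibrate plus ezetimibe, called the combination. All 4 groups were treated for 8 h at doses that the labels do not state. The remaining 6 samples, on PKM2 knockout, are not analysed here. The labels give no separate cultures for the numbered libraries, so the errors measure only the spread between these libraries, which may be technical. All groups are 1 cell line, and the same 3 DMSO libraries serve every treatment.

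An antisense RNA is a transcript, usually long and not translated, that is read from the strand opposite another gene and shares some of its DNA. Its start can lie beside the start of the overlapping gene so that both are transcribed outwards from nearby promoters (head-to-head), its end can run into the end of that gene (tail-to-tail), or the shorter gene can lie within the longer one. Some such RNAs act on the gene they overlap, by transcription through it, by pairing with its messenger RNA or by bringing chromatin factors to it, and others are made from an active neighbouring promoter with no known role. The protein-coding gene on the other strand is called the partner below.

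Values are normalised read counts, that is read counts divided by 1 factor for each library. The combination table held 2550718 to 3265200 reads per library, of which 7903 to 13086 lay in the antisense rows, and the total depth of the libraries is not known. Neither the library protocol nor the counting is stated to use strand. Where an antisense RNA and its partner share bases, or where an antisense exon lies in a partner intron, their reads therefore cannot be told apart. Each table lists only genes that the authors called changed (past 1 log2 unit in either direction, adjusted p below 0.05), so the change of a listed gene against DMSO is a description of why it is listed. It is given as log2 change ± SE from limma on log2 of the value plus 1, with no p. Most marker genes of breast epithelium, leukocytes, endothelium and fibroblasts were not in the tables, and the cell type could not be checked against them. In the authors' deposited table of the combination, KRT7 and GATA3, of 9 breast epithelial markers, were higher (log2 fold changes 3.31 and 2.05) and COL1A1, of 4 fibroblast markers, was lower (-1.97). With ezetimibe, in the authors' deposited table, GATA3 was higher (1.08) and CDH5, of 3 endothelial markers, lower (-1.42). What part these had in the results was not tested. In bulk RNA, fewer cells that make a transcript and less of it per cell cannot be told apart.

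Antisense RNAs were few in reads and mostly higher with the combination. They made up 0.258% to 0.265% of the table's reads in the DMSO libraries and 0.453% to 0.456% in the combination libraries. Both parts of these shares hold only genes listed as changed between these groups. The shift therefore describes the listing and does not measure the antisense share of whole libraries. Of the 177, 139 (78.5%) were higher and 38 were lower. Their log2 fold changes in the authors' deposited table ran from 1.01 to 6.04 among the higher and from -1.04 to -5.41 among the lower. Limma, edgeR and DESeq2 each called 139 higher and 38 lower. Of all 3508 genes limma and edgeR called 100%, 58.7% higher and 41.3% lower, and DESeq2 called 99.9%, 58.6% higher and 41.3% lower. No treated library overlapped a DMSO library in 171 of the 177, beside 99.0% of all genes. The members lay on 23 chromosomes, with at most 16 on any 1 of them.

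Among antisense RNAs and protein-coding genes the share of higher genes was lower at higher levels, and among long intergenic RNAs (lincRNA), which lie between protein-coding genes, it was not. Among genes with a mean value under 10, 42 of 50 antisense RNAs (84.0%) and 144 of 172 protein-coding genes (83.7%) were higher, as were 82.3% of 62 lincRNAs. Between 10 and 50 the shares were 77.2% of 101 antisense RNAs, 75.3% of 470 protein-coding genes and 69.3% of 101 lincRNAs. At 50 and over they were 73.1% of 26 antisense RNAs, 47.2% of 2099 protein-coding genes and 81.0% of 42 lincRNAs. This range has no upper limit, and only 14 antisense RNAs reached a mean of 100. The highest mean was 2180 among antisense RNAs and 106602 among protein-coding genes. These shares therefore do not compare genes at equal levels. Over all levels 75.6% of 205 lincRNAs were higher. The median mean value was 20.6 for antisense RNAs and 279 for protein-coding genes. Per kilobase of exon, the median level of the antisense RNAs was 5.27 in DMSO and 14.1 with the combination, against 45.4 and 49.2 for protein-coding genes. The median log2 fold change in the authors' deposited table was 1.96 over the antisense RNAs and 1.17 over all genes. Both medians were the same with genes at 0 reads in a group set to the bound that 3 reads over that group allow. For the antisense RNAs this outcome was fixed beforehand. Their lowest bounds, 4.32-fold higher and 4.48-fold lower, keep each gene on its side of the median.

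**Figure D1:**
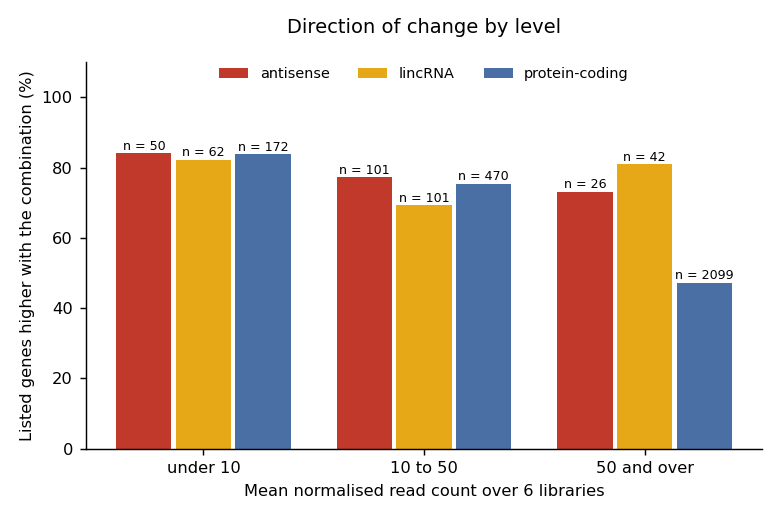
Share of listed genes that were higher with the combination than with DMSO (vertical axis, %), by mean normalised read count over the 6 libraries (horizontal axis), for antisense RNAs, lincRNAs and protein-coding genes, with the number of genes over each bar. Under 10 the 3 bars lie between 82.3% and 84.0%, and at 50 and over the protein-coding bar falls to 47.2% while the antisense bar is at 73.1% and the lincRNA bar at 81.0%.

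Some antisense RNAs were read in only one group. No read fell on 14 of them in any DMSO library, with 13 to 35 reads over the combination libraries, which puts them at least 4.32-fold to at least 12.1-fold higher (floor of 3 reads over a group). LINC00659, at chr20:62774128-62775412 in hg38, had the highest bound, with values of 19.7, 5.56 and 10.5 in the combination libraries. Conversely 4 had no read in any combination library and 14 to 24 reads over the DMSO libraries, at least 4.48-fold to at least 7.84-fold lower. The strongest of these, AC004540.2 on chromosome 7, had 7.81, 10.1 and 5.34 in the DMSO libraries. Another 14 had 1 to 3 reads in DMSO. PDCD4-AS1 had 1 DMSO read against 47 with the combination, a ratio whose 95% exact counting interval ran from 8.07 to 1904. Such intervals cover counting error only.

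The 10 largest rises among antisense RNAs with a mean value of at least 20 began from low levels in DMSO. ZMIZ1-AS1 (chr10:78943328-79067895), which overlaps no protein-coding gene in GENCODE, had 3.91, 2.75 and 4.27 in the DMSO libraries and 55.9, 57.4 and 45.0 with the combination. It was 14.5-fold higher (log2 change 3.54 ± 0.32, n = 3 per group), and the groups lay far apart. VLDLR-AS1 overlaps VLDLR, a lipoprotein receptor that is not in the combination table, and had 1.95, 4.59 and 3.20 in DMSO and 47.1, 49.1 and 43.1 with the combination (14.3-fold, log2 change 3.53 ± 0.35). LUCAT1, known as a stress-inducible RNA, had 3.91, 3.67 and 6.40 in DMSO and 42.7, 51.0 and 50.8 with the combination (10.3-fold, 3.15 ± 0.33). All 3 combination libraries of each of these RNAs were more than 6 times its highest DMSO library.

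AC097359.2 (chr3:37241789-37244177), on the strand opposite GOLGA4, had 8.79, 10.1 and 8.54 in DMSO and 76.7, 82.5 and 72.8 with the combination, a rise of 8.46-fold (log2 change 2.95 ± 0.26). For AC026471.1 the values were 1.95, 10.1 and 11.7 and 64.7, 46.3 and 56.5 (7.04-fold, 2.91 ± 0.52). It overlaps ARMC5, and 1 of its DMSO libraries was far below the other 2. The remaining large rises, NECTIN3-AS1, AC073611.1, FAM222A-AS1, AL590666.2 and CEBPB-AS1, have listed partners and are described with them.

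Among antisense RNAs with a mean value of at least 20 the falls were smaller than the rises, the deepest being -2.37 and the highest 3.87 (log2 fold changes in the authors' deposited table). Below that mean the falls reached -5.41. AC115618.2, at chrX:48579774-48581157 on the minus strand, had 53.7, 71.6 and 54.4 in the DMSO libraries and 13.2, 9.27 and 12.4 with the combination, 5.16-fold lower (log2 change -2.27 ± 0.29). AC019205.1, which overlaps KHDC1, went from 78.1, 113 and 97.1 to 19.7, 28.7 and 22.0 (4.09-fold lower, -1.99 ± 0.26). ABALON, transcribed opposite the cell survival gene BCL2L1, fell from 35.2, 49.6 and 54.4 to 9.86, 15.8 and 21.1 (2.98-fold, -1.55 ± 0.34). Since 74.8% of its exon bases are shared with exons of other genes, its reads are among the least certain. ZBED5-AS1 (3.05-fold lower, -1.55 ± 0.32) and AP001542.3 (2.95-fold lower, -1.54 ± 0.35) completed the falls without a listed partner. In each of these 5 RNAs every combination library lay below every DMSO library.

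Of 60 antisense RNAs with a published name and function, 11 were in the combination table, 5 higher and 6 lower, and none was in either table of a single drug. Of all 5583 antisense genes of the annotation 3.17% were in the combination table, and 78.5% of those were higher. For 2 of the 11, EPB41L4A-AS1 and FOXD2-AS1, the file gives another biotype. ZFAS1 (chr20:49278178-49295738), whose introns hold small nucleolar RNAs, had 200.2, 214 and 319 in DMSO and 1436, 1066 and 1092 with the combination (4.90-fold, log2 change 2.31 ± 0.19). SNHG12, another such host on chromosome 1, was named after its values were seen. It had 282, 235 and 225 in DMSO and 1350.3, 1065 and 1069.6 with the combination (4.69-fold, 2.22 ± 0.14). UBA6-AS1 rose from 33.2, 45.0 and 39.5 to 316, 212 and 237 (2.66 ± 0.22). The rise of ZEB1-AS1, which lies beside the mesenchymal transcription factor gene ZEB1, was smaller, from 51.8, 63.3 and 75.8 to 122, 132 and 155 (2.14-fold, 1.09 ± 0.21).

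The most abundant antisense RNA of all, FGD5-AS1 (chr3:14920347-14948424), fell. It had 3086, 2790.0 and 3369 in the DMSO libraries and 1065, 1357 and 1412 with the combination, 2.41-fold lower (log2 change -1.28 ± 0.13). In the HOXA cluster, which encodes transcription factors of body patterning, HOXA-AS2 fell from 145, 114 and 97.1 to 52.6, 45.4 and 38.3 (-1.36 ± 0.23) and HOXA-AS3 from 34.2, 53.2 and 38.4 to 11.0, 6.49 and 8.62 (-2.15 ± 0.33). No combination library reached the lowest DMSO library in any of these 3 RNAs.

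In the GENCODE 29 annotation 158 of the 177 antisense RNAs overlap a protein-coding gene on the other strand and 19 overlap none. A partner was itself listed for 50 of them. In all, 52 of the 184 overlapped protein-coding genes (28.3%) were listed, beside 13.8% of the 19922 protein-coding genes of the annotation. The annotation counts genes whether or not Cal51 expresses them, while the 184 were picked for overlapping a listed RNA and may share its reads. These shares are therefore not like for like. By class of partner, 39 of 50 antisense RNAs with a listed one were higher (78.0%), as were 85 of 108 with an unlisted partner (78.7%) and 15 of 19 with none (78.9%). A median of 11.3% of the exon bases of an antisense RNA were shared with exons of other genes. Among the 46 that share none, 35 were higher, and of the 9 that share over 50%, 7 were higher.

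The 50 antisense RNAs and 52 listed partners form 54 pairs. Both genes were higher in 35 pairs, both lower in 12 and opposite in 7, so that 47 of 54 (87.0%) moved the same way. Among the other listed genes that overlap on opposite strands, 45 of 63 pairs of protein-coding genes (71.4%) and 41 of 48 pairs of other biotypes (85.4%) did so. Of the antisense pairs, 27 are head-to-head (23 in the same direction), 13 are tail-to-tail (10), 11 antisense RNAs lie inside the partner (11) and 3 contain it (3). In all 11 that lie inside, over 50% of the antisense exon bases are in partner introns. Where no antisense exon base lies in a partner exon, 11 of 13 pairs moved the same way, against 36 of 41 with shared exon bases. Both genes of each pair were listed from the same libraries, so these counts carry no test.

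**Figure D2:**
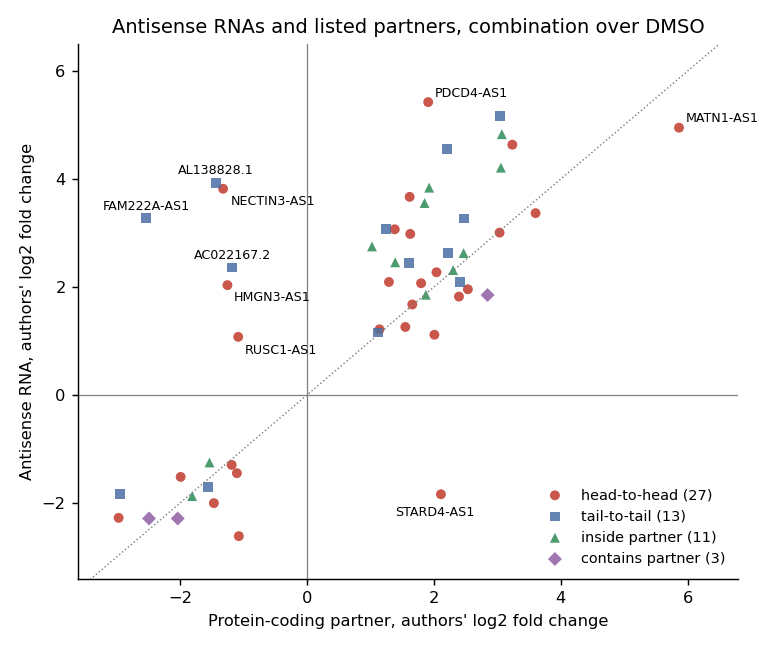
The authors' log2 fold changes (combination over DMSO) of 54 pairs, antisense RNA on the vertical axis and protein-coding partner on the horizontal axis, with the mark showing how the genes overlap and the dotted line equal change. The points fill the quadrants of equal direction (35 and 12 pairs), and 7 pairs lie in the other quadrants, of which STARD4-AS1 alone has a lower antisense RNA and a higher partner.

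In 6 of the 7 opposite pairs the antisense RNA rose and the partner fell. NECTIN3-AS1 (chr3:110893708-111071553) starts 1482 bases inside NECTIN3 (chr3:111070071-111275563), a cell adhesion gene, and runs the other way. The antisense RNA had 1.95, 2.75 and 4.27 in DMSO and 35.1, 49.1 and 41.2 with the combination (14.0-fold higher, log2 change 3.45 ± 0.36). NECTIN3 itself fell from 764, 728 and 840.0 to 208, 373 and 350.5 (2.50-fold, -1.36 ± 0.20). No exon base of NECTIN3-AS1 lies in an exon of NECTIN3, and 78.6% lie outside the gene.

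FAM222A-AS1 and FAM222A on chromosome 12 run into each other's ends. The RNA rose from 7.81, 2.75 and 4.27 to 68.0, 37.1 and 38.3 (3.07 ± 0.41), and FAM222A fell from 426, 409 and 375 to 52.6, 85.2 and 70.9 (-2.54 ± 0.19). Per kilobase of exon, FAM222A was 23.4-fold above the antisense RNA in DMSO, and with the combination its level was 18.7 against 44.7 for the antisense RNA. The order of the 2 genes was thus reversed. AL138828.1 spans 203639 bases of PDE7B, a phosphodiesterase that degrades cyclic AMP. It rose from 3.91, 0.918 and 1.07 to 30.7, 36.1 and 23.0 (3.50 ± 0.45) while PDE7B fell from 275, 252 and 344 to 74.5, 147 and 99.6 (-1.47 ± 0.24), although 89.3% of the antisense exon bases are in PDE7B introns.

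AC022167.2, which ends in CARHSP1, a gene for an RNA-binding protein on chromosome 16, rose from 16.6, 13.8 and 14.9 to 75.6, 85.2 and 71.8 (2.29 ± 0.25). Of its exon bases 61.2% are shared with exons of other genes, with 14.7% in CARHSP1 exons. How much of its signal came from other genes was not tested. CARHSP1 had 670.1, 671 and 581 in DMSO and 347, 222 and 282 with the combination (-1.19 ± 0.16). HMGN3-AS1 rose from 11.7, 4.59 and 4.27 to 25.2, 30.6 and 28.7 (2.01 ± 0.40), and its partner HMGN3, which encodes a nucleosome-binding protein, fell from 710.1, 723 and 809 to 338, 298 and 306 (-1.25 ± 0.12). The mildest of the 7 pairs was RUSC1-AS1, from 63.5, 53.2 and 43.8 to 134, 103 and 103 (1.07 ± 0.22), with RUSC1, from 822, 968 and 835 to 444, 383 and 415 (-1.08 ± 0.12). RUSC1-AS1 also overlaps FDPS, a gene of the mevalonate pathway that is not in the combination table.

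STARD4-AS1 (chr5:111512226-111739726) was the reverse case. STARD4, a sterol carrier gene whose transcription depends on cellular sterol, rose from 124, 145 and 149 to 458, 684 and 666 (4.32-fold, log2 change 2.09 ± 0.18). STARD4-AS1, whose start lies 364 bases inside STARD4, fell from 27.3, 44.1 and 29.9 to 5.48, 5.56 and 17.2 (3.58-fold, -1.89 ± 0.45), with no overlap between groups. Its other end runs into NREP, which fell further, from 435, 423 and 454 to 52.6, 63.0 and 53.6 (7.75-fold, -2.94 ± 0.15). Of its exon bases 95% lie outside STARD4, while 79.3% lie in NREP introns and 15.7% in NREP exons. How much of its signal came from NREP was not tested. Of 29 genes of sterol and lipid metabolism, 4 were higher (STARD4 among them) and 1 was lower with the combination, 8 were higher with ezetimibe and 21 with fenofibrate, with none lower. For scale, 13.8% of all protein-coding genes of the annotation were in the combination table, and 58.7% of that table's genes were higher. The ezetimibe and fenofibrate tables held 472 and 102 genes, of which 77.5% and 91.2% were called higher by limma.

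**Figure D3:**
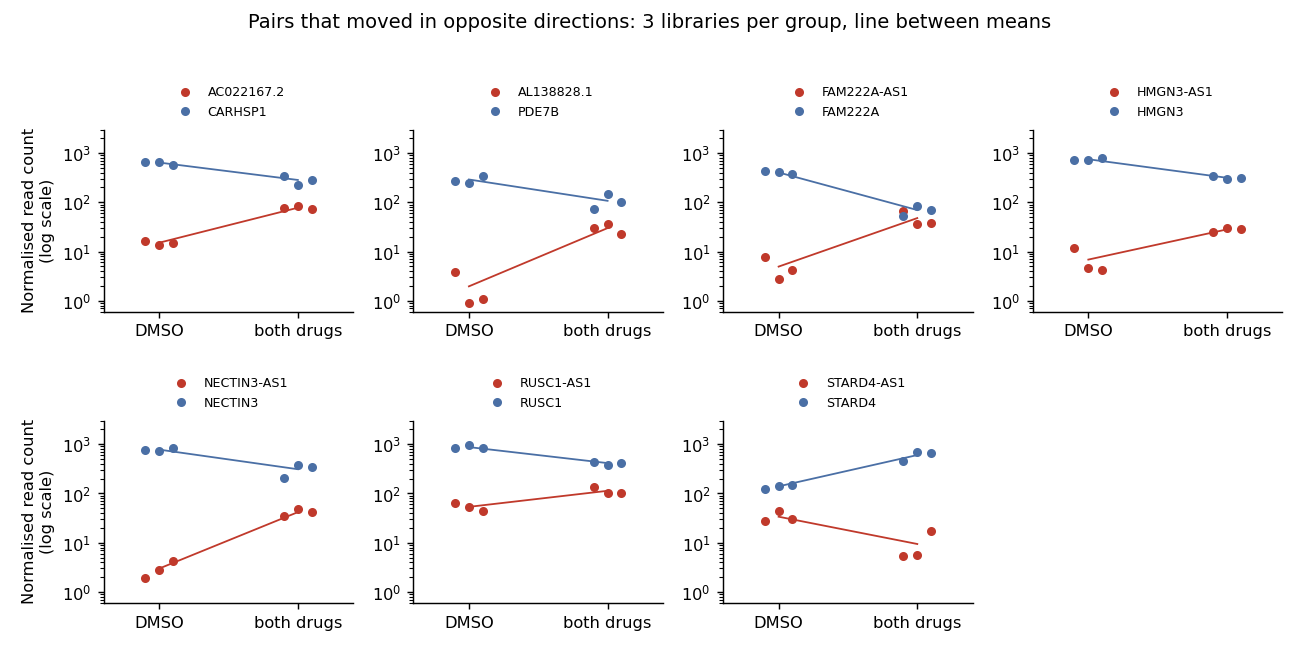
Normalised read count (vertical axis, log scale) of the antisense RNA (red) and its partner (blue) in the 3 DMSO and 3 combination libraries of each of the 7 opposite pairs; points are libraries and lines join the group means. In 6 panels red rises and blue falls, in the STARD4 panel blue rises and red falls, and in no panel does a gene's DMSO range meet its combination range.

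The log2 ratio of antisense RNA to partner rose in 6 of these 7 pairs, by between 2.15 ± 0.22 (RUSC1-AS1) and 5.61 ± 0.49 (FAM222A-AS1), and was -3.98 ± 0.41 for STARD4-AS1. Listing alone puts the 2 genes of an opposite pair at least 2 log2 units apart, so no test is read from them. In the 47 pairs that moved the same way listing does not force the 2 genes apart, but it does not leave their ratio free. A gene with few reads is listed only if its change is large, which favours large changes of low antisense RNAs. The adjusted p values of these ratios carry that selection. Limma tested the ratio over all 165 overlapping opposite-strand pairs of listed genes (35.2% called). That share includes opposite pairs, which listing puts apart (7 antisense, 7 of other biotypes and 18 of protein-coding genes). It is therefore no background for the 47. The ratio changed in 8 of the 47 (17.0%), in 7 of them towards more antisense RNA. The share among other same-direction pairs was not counted, so these counts are not read as particular to antisense RNAs. The median ratio change over the 47 was 0.08 on the log2 scale, and 37 lay within 1 log2 unit of 0. The ratio is of values plus 1, which understates the change of low genes, and the antisense RNA was mostly the lower gene of a pair. These sizes therefore do not show that the 2 genes changed equally. When each library was left out in turn, 2 of the 8 calls held throughout.

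Those 2 were AL157871.2, inside WARS, and AC073611.1, head-to-head with C12orf10. AL157871.2 lies wholly in introns of WARS, the gene of tryptophanyl-tRNA synthetase, and rose from 0.977, 1.84 and 1.07 to 17.5, 20.4 and 18.2, while WARS rose from 2601, 2469 and 2605 to 10891, 9037 and 9259. The log2 ratio rose by 1.20 ± 0.24 (adjusted p = 0.00930 by limma, at most 0.0385 without any 1 library). AC073611.1 rose from 5.86, 3.67 and 1.07 to 54.8, 31.5 and 50.8 and C12orf10, a gene for a nuclease, from 584, 572 and 498 to 2006, 1437 and 1645 (ratio 1.88 ± 0.40, adjusted p = 0.0120 by limma, at most 0.0444). In both pairs every library of either gene was higher with the combination.

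The other 6 calls depended on single libraries. CEBPB, a transcription factor gene of the stress and inflammatory response, stands in a list of 31 stress genes of which 26 were higher and none lower, where 13.8% of all protein-coding genes were listed and 58.7% of the listed genes were higher. It rose from 1034, 1026 and 1030.0 to 3691, 2783 and 3088, and CEBPB-AS1 (chr20:50184598-50191498) from 9.77, 8.26 and 4.27 to 66.9, 51.0 and 60.3. Their ratio rose by 1.28 ± 0.30 (adjusted p = 0.0164 by limma, and 0.0557 without combination replicate 3). UGDH-AS1 over UGDH gave 0.75 ± 0.18 (adjusted p = 0.0195 by limma, 0.0713 without DMSO replicate 2), and PDCD4-AS1 over PDCD4, an inhibitor of translation initiation, 1.65 ± 0.40 (0.0195 by limma, 0.0719 without combination replicate 2). BCDIN3D-AS1 over BCDIN3D (1.47 ± 0.43), AC012123.1 over KLHL14 (0.91 ± 0.28) and AC073254.1 over EFHD1 (-1.17 ± 0.34) had adjusted p values of 0.0388, 0.0462 and 0.0388 by limma. In turn these became 0.122 without combination replicate 2, 0.136 without combination replicate 3 and 0.112 without DMSO replicate 3.

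At BCAN, the gene of the matrix proteoglycan brevican on chromosome 1, both antisense RNAs were above the protein-coding gene. AL365181.3 (chr1:156641666-156644887) lies inside BCAN and AL590666.2 (chr1:156646507-156661424) enters it from the far end. Per kilobase of exon, DMSO levels were 34.2 for AL365181.3, 25.2 for AL590666.2 and 5.28 for BCAN, and combination levels were 212, 242 and 29.4. In normalised reads AL365181.3 rose from 107, 118 and 105 to 741, 666 and 641 (6.20-fold, log2 change 2.62 ± 0.13). AL590666.2 rose from 20.5, 16.5 and 20.3 to 194, 168 and 189.6 (9.62-fold, 3.20 ± 0.22) and BCAN from 30.3, 27.5 and 20.3 to 167, 118 and 150.3 (5.56-fold, 2.44 ± 0.25). The ratios to BCAN did not pass the test (0.18 ± 0.22, adjusted p = 0.587, and 0.77 ± 0.24, adjusted p = 0.0507, by limma). With 46.7% of the AL590666.2 exon bases in BCAN exons, the part that shared reads had in these levels was not tested.

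Such an order was uncommon. Per kilobase the partner was above the antisense RNA in DMSO in 46 of the 54 pairs, by a median of 16.3-fold over the 50 pairs with antisense reads in DMSO, and the median over the same pairs with the combination was 6.45-fold. Both genes of a pair are listed because they changed, and 39 of 50 antisense RNAs with a listed partner were higher. The difference between these medians therefore describes the listing. The 8 exceptions in DMSO were both BCAN pairs, GATA2-AS1, LBX2-AS1, SLFNL1-AS1, AC011451.1, FOXD3-AS1 and MATN1-AS1 with their partners. With the combination the antisense RNA was above its partner in 10 pairs.

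UGDH-AS1 (chr4:39528019-39594707) lies between 2 higher partners. It starts 292 bases inside UGDH, the gene of the enzyme that makes UDP-glucuronate, and runs through SMIM14, in whose introns 82.7% of its exon bases lie. UGDH-AS1 rose from 21.5, 17.4 and 22.4 to 84.4, 97.3 and 79.5 (4.26-fold), UGDH from 1875, 1798 and 1998 to 4386, 4664 and 4850.3 (2.45-fold) and SMIM14 from 139.7, 172 and 195 to 786, 978 and 927 (5.31-fold). The ratio to SMIM14 changed by -0.37 ± 0.22 (adjusted p = 0.278 by limma). By these folds UGDH-AS1 lay between its 2 neighbours. Its difference from SMIM14 did not pass the test, and that from UGDH lost its call without DMSO replicate 2. How much of its signal came from SMIM14 was not tested.

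**Figure D4:**
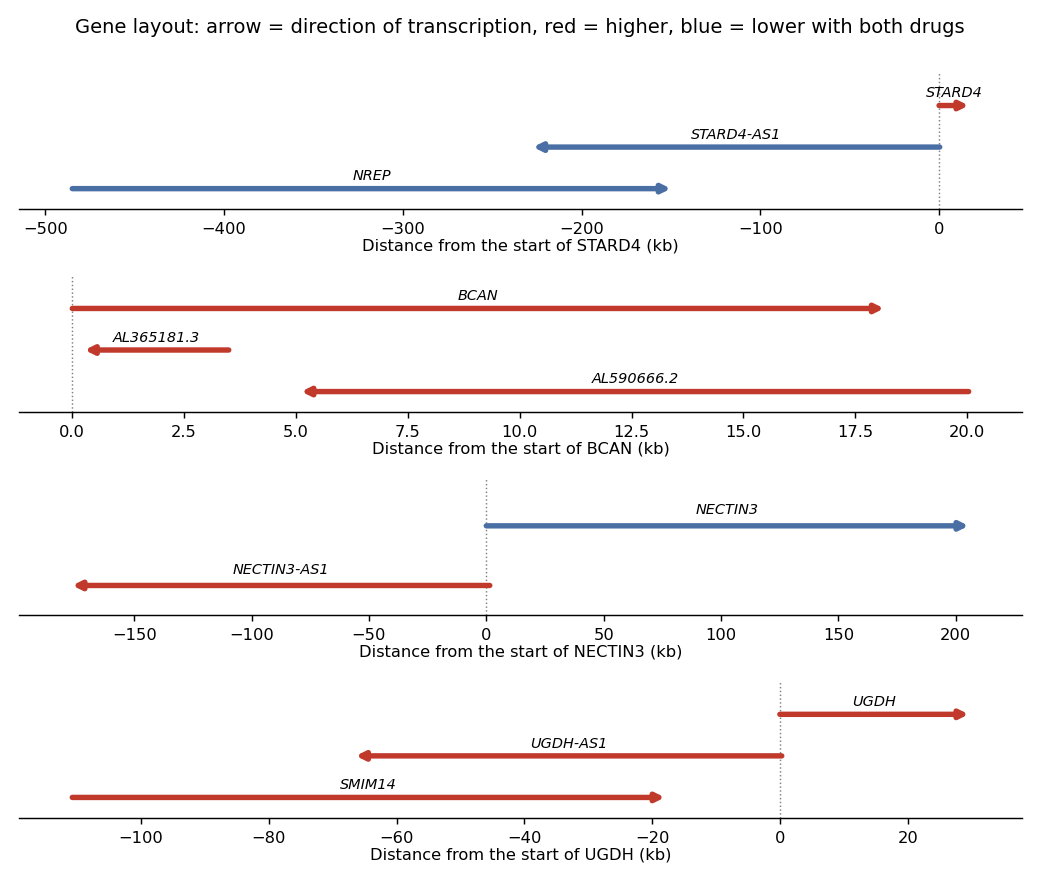
Position of genes in 4 regions as distance in kb from the start of STARD4, BCAN, NECTIN3 and UGDH (horizontal axis, GENCODE 29 gene bounds); arrows point in the direction of transcription, red genes were higher and blue genes lower with the combination. STARD4-AS1 is blue between red STARD4 and blue NREP, all genes at BCAN and UGDH are red, and NECTIN3 and its antisense RNA differ in colour.

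Of the other pairs that rose, AL391422.4 on chromosome 6 rose from 5.86, 16.5 and 18.1 to 46.0, 58.4 and 52.7 (3.88-fold) and its partner PXDC1 from 133, 162 and 162 to 1064, 784 and 803 (5.81-fold). AC011451.1 rose from 10.7, 6.43 and 10.7 to 72.3, 62.1 and 38.3 and ZNF699, a zinc finger gene, from 51.8, 34.9 and 77.9 to 85.5, 361 and 318. In ZNF699 combination library 1 was far below the other 2, while in AC011451.1 it was the highest. VIPR1-AS1 lies wholly inside VIPR1, the gene of a receptor for vasoactive intestinal peptide, mostly in its introns (83.8%). It rose from 9.77, 6.43 and 20.3 to 55.9, 45.4 and 29.7, 3.59-fold, beside 3.67-fold for VIPR1.

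Of the 12 pairs that fell together, 3 have a partner in the list of developmental transcription factors. Among these GATA2, a factor of blood and endothelial development, fell from 487, 509 and 416 to 221, 190.0 and 247 (2.14-fold, -1.10 ± 0.15), and GATA2-AS1 from 359, 402 and 369 to 145, 145 and 126 (2.72-fold, -1.44 ± 0.14). Outside that list, the orphan nuclear receptor gene NR2F2 fell from 10037, 10909 and 9898 to 2004, 2827 and 2943 (-2.01 ± 0.14) and NR2F2-AS1 from 54.7, 46.8 and 57.6 to 9.86, 13.9 and 31.6 (-1.63 ± 0.39). HOXA-AS3 spans HOXA5, which fell from 648, 662 and 703 to 127, 126 and 106 (5.60-fold), and HOXA6, from 43.0, 59.7 and 53.4 to 19.7, 10.2 and 8.62 (4.05-fold). None of its exon bases lies inside HOXA5. GATA2, HOXA5, HOXA6 and FOXD3 were the 4 partners in the list, and FOXD3 rose. The list goes by symbol prefix, such as HOX, FOX and GATA, so it leaves out NR2F2, which fell, and LBX2, which rose. Of all genes listed with the combination, 41.3% were lower.

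TMPO, which encodes a protein of the nuclear lamina and stands in the replication list, fell from 5272, 4931 and 6597 to 1597, 2266 and 2222 (2.76-fold), and TMPO-AS1 from 65.4, 81.7 and 65.1 to 26.3, 12.0 and 15.3 (3.95-fold, -1.99 ± 0.32). In that list 28 of 42 genes were lower and none higher with the combination, where 13.8% of all protein-coding genes were listed and 41.3% of the listed genes were lower. WLS, needed for secretion of Wnt proteins, fell 2.93-fold, beside GNG12-AS1, which fell from 67.4, 70.7 and 90.7 to 15.3, 27.8 and 26.8 (3.27-fold, -1.70 ± 0.30). The TOX gene, of the HMG-box family, fell 2.28-fold, and AC090152.1 from 108, 86.3 and 143 to 50.4, 46.3 and 41.2 (2.45-fold). AP001528.2 has all its exon bases in introns of the serine protease gene PRSS23. It fell from 37.1, 30.3 and 29.9 to 8.77, 11.1 and 6.70 (3.66-fold) beside 3.50-fold for PRSS23, and the log2 ratio changed by 0.02 ± 0.23.

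The starts of the 27 head-to-head pairs lie 37 to 12187 bases apart in GENCODE (median 764), 17 of them within 1000 bases. RefSeq (GRCh38.p14) holds windows upstream of the start for 19 of the 27 partners and for both genes in 13 pairs. By RefSeq starts 8 of these 13 pairs diverge without overlap and 5 overlap, so the layout depends on the annotation. The 250 bases before the RefSeq start of 5 partners are shown because they cover a pair with starts 109 bases apart (FOXD3, chr1:63322317-63322566, plus strand), the pair between 2 rising genes (UGDH, chr4:39527440-39527689, minus strand), the smallest GENCODE distance (EIF2AK3, chr2:88627465-88627714, minus strand), a falling pair (TMPO, chr12:98515323-98515572, plus strand) and the reversed pair (STARD4, chr5:111512536-111512785, minus strand). Each is written 5′ to 3′ on the partner's strand, and capitals mark matches to the motifs given after them.
FOXD3: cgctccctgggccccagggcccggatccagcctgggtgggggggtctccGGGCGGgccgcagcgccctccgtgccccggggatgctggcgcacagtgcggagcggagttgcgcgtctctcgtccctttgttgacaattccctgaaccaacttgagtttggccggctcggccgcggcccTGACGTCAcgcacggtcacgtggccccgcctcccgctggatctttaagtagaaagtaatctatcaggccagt
UGDH: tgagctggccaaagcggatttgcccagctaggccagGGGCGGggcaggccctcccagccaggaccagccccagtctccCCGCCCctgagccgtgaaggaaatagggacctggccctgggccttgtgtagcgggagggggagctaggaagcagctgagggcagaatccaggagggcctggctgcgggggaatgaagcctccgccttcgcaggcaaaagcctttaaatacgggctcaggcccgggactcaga
EIF2AK3: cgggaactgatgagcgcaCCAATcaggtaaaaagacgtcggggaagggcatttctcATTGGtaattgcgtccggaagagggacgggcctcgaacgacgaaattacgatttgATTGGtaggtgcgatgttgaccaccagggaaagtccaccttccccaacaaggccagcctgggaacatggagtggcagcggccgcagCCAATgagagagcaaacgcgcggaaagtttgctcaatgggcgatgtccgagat
TMPO: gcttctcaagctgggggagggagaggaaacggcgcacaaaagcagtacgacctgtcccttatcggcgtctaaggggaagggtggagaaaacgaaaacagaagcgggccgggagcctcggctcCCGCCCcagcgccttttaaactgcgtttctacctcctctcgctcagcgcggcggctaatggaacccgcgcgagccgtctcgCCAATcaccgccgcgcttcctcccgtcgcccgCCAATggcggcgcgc
STARD4: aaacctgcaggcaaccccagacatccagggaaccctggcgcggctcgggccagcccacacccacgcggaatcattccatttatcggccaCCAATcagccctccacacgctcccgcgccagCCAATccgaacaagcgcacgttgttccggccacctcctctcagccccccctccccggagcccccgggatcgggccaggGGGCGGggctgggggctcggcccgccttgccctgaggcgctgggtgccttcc

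Both strands were searched for CCAAT, the NF-Y box, GGGCGG, the GC box, TGACGTCA, the cyclic AMP response element, TGACTCA (AP-1), TGATGCAA (a composite site of C/EBP and ATF factors) and TTTGGCGC and TTTCCCGC (both E2F). None of these motifs contains another. CCAAT was in a window of 14 of the 19 partners (73.7%), beside 32.0% of all 35116 RefSeq windows of this length. A partner with several windows counts once if any holds the motif, while the share over all windows counts each window. The partner shares, here and for the other motifs, can be higher for that reason alone. The GC box was likewise in 14 of 19, beside 42.6% of all windows. EIF2AK3 has 4 CCAAT matches, TMPO 2 and STARD4 2. FOXD3 has TGACGTCA 72 bases before its start, a match found in 1.65% of all windows and in no other of the 19 partners. AP-1 matched in 2 of the 19, beside 4.20% of all windows, and the other 3 motifs in none, beside 0.550% to 1.39%. A match is a description of letters, not a bound site.

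Of the genes behind these windows, UGDH, TMPO and STARD4 are described above. EIF2AK3, the gene of the PERK kinase, which senses unfolded protein in the endoplasmic reticulum, rose from 246, 252 and 282 to 717, 877 and 871 (3.16-fold). AC062029.1, which starts 37 bases inside it and has 99.1% of its exon bases outside, rose from 17.6, 4.59 and 16.0 to 52.6, 27.8 and 41.2 (log2 change 1.73 ± 0.48), and the ratio changed by 0.08 ± 0.54. FOXD3, a transcription factor of the neural crest, rose from 0, 2.75 and 3.20 to 14.2, 26.9 and 30.6 and FOXD3-AS1 from 2.93, 0.918 and 3.20 to 27.4, 17.6 and 26.8, both low in every library.

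Ezetimibe alone listed 19 antisense RNAs among 472 genes, 16 higher and 3 lower, and limma called all 19 (background 99.8% of the table called, 77.5% higher and 22.2% lower). No ezetimibe library overlapped a DMSO library in any of the 19, beside 98.3% of the table. Of the 11 also listed with the combination, 10 were higher in both tables and 1, AP001528.2, was lower in both. The tables share their DMSO libraries, so this likeness of direction is not independent. VLDLR-AS1 rose most, with 1.96, 4.61 and 3.21 in DMSO and 29.9, 25.8 and 40.9 with ezetimibe (log2 change 2.99 ± 0.43).

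The 8 antisense RNAs listed with ezetimibe and not with the combination held 6 that rose. ZNF710-AS1 went from 2.94, 7.37 and 11.8 to 32.0, 22.7 and 15.2 (1.64 ± 0.49) and AL139082.1 from 12.7, 17.5 and 11.8 to 46.4, 34.0 and 46.6 (1.54 ± 0.29), given as log2 change ± SE. AC080112.1 rose from 37.2, 49.7 and 17.1 to 89.7, 100.1 and 89.3 (1.52 ± 0.32), and AC145285.6 from 23.5, 19.3 and 12.8 to 51.6, 42.3 and 37.1 (1.22 ± 0.29). AL049840.1 and C1RL-AS1 rose least, by 1.06 ± 0.28 and 1.03 ± 0.20. The 2 that fell were AL022068.1, from 52.9, 49.7 and 49.2 to 20.6, 20.6 and 17.1 (-1.34 ± 0.24), and AC099850.3, from 158, 148 and 193 to 108, 62.9 and 64.6 (-1.11 ± 0.21). Not being in the combination table says only that these RNAs missed its thresholds, and whether their change differed with both drugs was not tested.

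For the genes of both tables limma tested the combination against ezetimibe, after both tables were put on one scale through the DMSO libraries. Of 359 such genes 63.2% differed, 53.2% higher and 10.0% lower with the combination. Among the 11 antisense RNAs 3 were higher with the combination than with ezetimibe and limma called none lower, with 0 also at an unadjusted p under 0.05. AL365181.3 had 270.5, 292 and 283 with ezetimibe and 741, 666 and 641 with the combination, a log2 difference of 1.27 ± 0.12 (adjusted p = 1.34e-06 by limma). AL590666.2 had 52.5, 102 and 55.0 and 194, 168 and 189.6 (1.45 ± 0.25, adjusted p = 0.000191 by limma), so both antisense RNAs of BCAN were higher with both drugs than with ezetimibe. Neither was listed with fenofibrate, so their level against that drug is not known. AC096677.1, on the strand opposite CSRP1, had 26.7, 21.6 and 26.5 and 58.1, 36.1 and 58.4 (0.97 ± 0.29, adjusted p = 0.0102 by limma), a call that was lost without combination replicate 3 (adjusted p = 0.0505).

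The other 8 did not pass this test. VLDLR-AS1 differed by 0.54 ± 0.34 (adjusted p = 0.176 by limma), UGDH-AS1 by 0.40 ± 0.21 (0.112) and AP001528.2 by -0.69 ± 0.34 (0.0912). RUSC1-AS1 had 135, 96.7 and 97.6 with ezetimibe and 134, 103 and 103 with the combination, a difference of 0.05 ± 0.21. AC087741.1, opposite CARD14, differed by -0.06 ± 0.23, AC018413.1 by 0.35 ± 0.31, VIPR1-AS1 by 0.32 ± 0.38 and ZNF32-AS2 by 0.21 ± 0.47. Missing the threshold does not show that these RNAs were equal with 1 drug and with both.

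**Figure D5:**
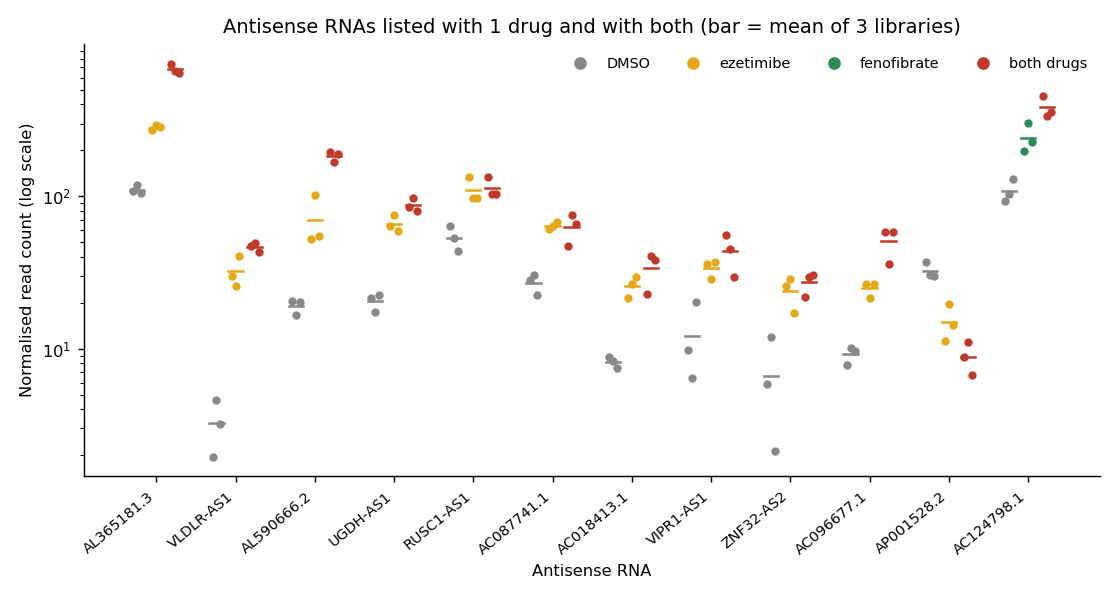
Normalised read count (vertical axis, log scale) of the 12 antisense RNAs listed with 1 drug and with both, in DMSO, single-drug (ezetimibe, or fenofibrate for AC124798.1) and combination libraries; points are libraries, bars are means of 3, and single-drug values were scaled to the combination table. AL365181.3 climbs in clear steps from DMSO (about 110.2) through ezetimibe (282) to the combination (683), the ezetimibe and combination points of RUSC1-AS1 overlap, and AP001528.2 is the only one below DMSO.

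With ezetimibe 10 of the 52 partners were listed too, 9 higher and 1 lower. Over all genes, 359 of the 3508 in the combination table were also in the ezetimibe table, and 77.5% of the ezetimibe table was called higher. In 4 pairs both genes were listed, all 4 with both genes higher: BCAN with each of its antisense RNAs, VIPR1 with VIPR1-AS1 and SMIM14 with UGDH-AS1. BCAN changed by 1.08 ± 0.25, VIPR1 by 1.20 ± 0.11 and SMIM14 by 1.58 ± 0.14 on the log2 scale. CEBPB (1.09 ± 0.07), EIF2AK3 (1.01 ± 0.11) and WARS (1.51 ± 0.06) were higher and PDE7B (-1.21 ± 0.14) lower with ezetimibe, without their antisense RNAs in the table. STARD4 was higher with ezetimibe (1.34 ± 0.13) and with fenofibrate (1.57 ± 0.17), and STARD4-AS1 was in neither table.

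Fenofibrate alone listed 3 antisense RNAs among 102 genes, all higher and all called by limma (background 100% called, 91.2% higher and 8.82% lower), with no overlap between the groups in any of the 3, beside 98.0% of the table. AP002387.1 (chr11:71448674-71452157) rose from 31.5, 42.8 and 22.9 to 82.0, 110.5 and 77.1 (log2 change 1.47 ± 0.29). SNAI3-AS1, beside the zinc finger gene SNAI3, rose from 29.6, 25.9 and 24.0 to 67.2, 51.3 and 52.0 (1.07 ± 0.26). AC124798.1 was the only antisense RNA shared with the combination table and overlaps no protein-coding gene on the other strand. It had 92.8, 104 and 130.2 in DMSO, 197, 302 and 225 with fenofibrate and 457, 336 and 355 with the combination on one scale. The combination was higher by 0.67 ± 0.20 on the log2 scale (adjusted p = 0.0103 by limma, at most 0.0449 without any 1 library), beside 78.5% of 65 shared genes that differed, 69.2% higher and 9.23% lower with the combination. No antisense RNA was listed with both ezetimibe and fenofibrate.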

How the data were processed

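RNA of Cal51 cells was prepared with a SMARTER mRNA kit, per the labels' protocols, which do not mention strand. Tools in the submitters' processing notes are HISAT2 2.0.5, fastp and featureCounts 1.5.0-p3, on build hg38. The deposited signal is, from the values, a read count divided by 1 factor per library set by the authors within each table. The authors also deposited a log2 fold change, a p-value and an adjusted p-value per gene, per the file headers, and kept only genes past both limits, so every gene's own change had already been selected. For the combination 100% of values were whole reads within 0.001 after division by the step of each library.

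Changes were fitted with limma 3.58.1 (R 4.3.3) on log2 of the signal plus 1, over each whole table with Benjamini-Hochberg adjustment at 0.05. Recovered reads were also tested with edgeR 4.0.16 and DESeq2 1.42.0. Fold changes on the log2 scale with the pseudocount of 1 understate the change of low genes. For the combination against a single drug, tables were joined through their DMSO libraries (mean DMSO values of the ezetimibe and fenofibrate tables were 1.003 and 0.975 times those beside the combination). Ratios of overlapping genes were tested over all pairs on opposite strands. Genes, exons and overlaps are from GENCODE 29, matched by identifier for all 177 antisense rows, and windows from RefSeq (GRCh38.p14). The scripts were tested on simulated data.

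Genes were named by rule: the 10 largest rises and falls among RNAs whose mean reached 20 and whose groups did not overlap, all antisense RNAs of the single-drug tables, all opposite pairs, the 8 largest rising and falling pairs, and listed members of a list of characterised antisense RNAs. Those outside it (LINC00659, AC004540.2, PDCD4-AS1, SNHG12, AL157871.2, BCDIN3D-AS1, AC012123.1, AC073254.1, AC062029.1 and the RNAs of the closing observations) were chosen after their values were seen. The members and lists were chosen with earlier results of these data known.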

Additional observations from a re-analysis of the deposited data

How the results depend on the processing

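All 12 counts and shares kept their side in 136 checks, each of 1 item under 1 altered setting. So did the log2 changes of 43 named antisense RNAs in 516 such checks, although listing had already set the direction of each. With a mean value of at least 10 required, limma called 97 higher and 30 lower with the combination. Leaving out 1 library gave 135 to 139 higher and 36 to 37 lower. The 8 antisense RNAs that lost their limma call without 1 library were AC004264.1, AL603756.1, AC015849.3, AP000692.2, AC139887.2, AC068768.1, ZSCAN16-AS1 and AC004076.2. The share of pairs in the same direction ran from 82.5% (antisense mean of at least 10) to 91.3% (starts within 1000 bases), and was 88.9% over 9 pairs with an antisense mean of at least 50, a limit chosen after seeing the data. Changed ratios numbered 15 of 54 pairs, 10 to 15 with 1 library left out, and 19 with a pseudocount of 5.

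Treated and DMSO libraries share only their replicate numbers: in the combination table the correlations of same-numbered libraries were 0.09, -0.33 and 0.16, and no shared source is given. With the number as a replicate block the combination counts were 139 higher and 38 lower, ezetimibe 16 and 3, fenofibrate 3 and 0, and 11 changed ratios. The planned edgeR and DESeq2 tests of the ezetimibe and fenofibrate tables were not run, since whole reads were recovered only for the combination table. Depth limits the 14 antisense RNAs with 0 DMSO reads and the 14 with 1 to 3, whose folds are bounds or wide intervals.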

Other observations

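Among abundant antisense RNAs that belong to none of the groups above, HCG18 on chromosome 6 had 424, 410.4 and 396 in DMSO and 946, 1031 and 972 with the combination (2.40-fold, log2 change 1.26 ± 0.10), and its partner TRIM39, a gene for a ubiquitin ligase, had 169, 189 and 145 and 583, 445 and 451 (2.94-fold). CTBP1-DT, which overlaps the corepressor gene CTBP1, had 214, 276 and 235 and 589, 554 and 647 (2.47-fold, 1.31 ± 0.14). Every combination library was above every DMSO library in both RNAs. CTBP1 itself was not in the combination table.

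MATN1-AS1 and its partner MATN1, a cartilage matrix gene, had few reads in DMSO. MATN1-AS1 had 0.977, 1.84 and 0 in DMSO and 36.2, 32.4 and 22.0 with the combination, a read ratio whose 95% exact counting interval ran from 10.1 to 151. MATN1 had 0.977, 0 and 0 and 15.3, 20.4 and 25.9. In all, 4 of the 177 antisense RNAs hold a small nucleolar RNA gene on their own strand, SNHG12, ZFAS1, UBA6-AS1 and AC016708.1, and 3 of the 4 were higher. AC016708.1 had 26.4, 19.3 and 22.4 in DMSO and 0, 7.41 and 6.70 with the combination, and its log2 change of -2.55 ± 0.72 moved to -1.55 without combination replicate 1.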
